A study of Rattus norvegicus with 12 samples.

Results

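The type I interferon-stimulated genes described here were a list of 32 gene symbols: the factors of the interferon-activated transcription complex ISGF3 and antiviral genes that interferon induces. Of the 32, 31 had a row in the count table, out of 30045 rows in all, and all 31 were among the 17330 genes that passed the filter on low counts. Xaf1 was not analysed here. The counts came from cultured theca-interstitial cells, which surround the ovarian follicle and make androgens. They were isolated from wild-type female Sprague Dawley rats of postnatal day 30 and grown in McCoy's medium on plates coated with human fibronectin. Libraries fell into 3 groups of 4: cultures that received rat interleukin-1β (IL-1β, a cytokine of inflammation), cultures that received lipopolysaccharide (LPS, a bacterial cell wall component, 1 µg/ml) and control cultures that received vehicle, all for 48 h. The labels give no separate concentration for IL-1β and do not say whether the 4 replicates of a group came from separate animals or isolations, and a p-value covers no more than the variation among these 12 libraries.

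Type I interferons bind a receptor of the subunits IFNAR1 and IFNAR2, whose kinases JAK1 and TYK2 phosphorylate STAT2. STAT2 and IRF9 are part of ISGF3, which binds the interferon-stimulated response element in the promoters of many genes and raises their transcription. Many of the products sense viral nucleic acid, block viral entry, translation or release, or attach the ubiquitin-like protein ISG15 to other proteins, and many are transcribed at a low basal level without added interferon. LPS acts through the receptor TLR4, which in macrophages and dendritic cells leads both to NF-κB and, through IRF3, to interferon-β. IL-1β acts through its own receptor, mainly on NF-κB.

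Total counts per library lay between 23193408 and 26836323 with IL-1β, between 25643226 and 28698783 with LPS and between 20873934 and 32090924 in controls. Each member had at least 78 counts in every library, the lowest being Zbp1. Of the markers of theca cells, Cyp17a1, their androgen-producing enzyme, was low in control cultures: it averaged 15.5 ± 2.59 CPM with IL-1β, 3.39 ± 1.37 CPM with LPS and 0.537 ± 0.101 CPM in controls (SD, n = 4 each). Star, which carries cholesterol into mitochondria, averaged 405 ± 15 CPM with IL-1β, 353 ± 27.4 CPM with LPS and 141 ± 13.1 CPM in controls (SD, n = 4 each). Of 11 theca and steroidogenic markers, 8 were called higher and 1 lower with IL-1β (log2 fold changes from -0.67 to 4.86), and 6 higher and 2 lower with LPS (-0.72 to 3.16), by the test described below. With IL-1β 72.7% were higher and 9.09% lower, against 24.7% and 23.0% of all genes tested. With LPS 54.5% were higher, against 22.5%, and 18.2% lower, near the 20.0% of all genes. CPM are counts scaled by library size and do not allow for transcript length, so levels of different genes are not compared. RNA of a whole culture was measured, so fewer cells of a type and less RNA per cell cannot be told apart.

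Promoters are shown first because ISGF3 acts through a shared promoter element. The RefSeq table of assembly GRCr8, a newer build than the Rnor_6.0 build of the read processing, held a window from 250 bases before to 50 bases after the start of 23 of the 32 genes. The other 9 were Ddx58, Dhx58, Zbp1, Isg15, Usp18, Oas2, Ifit2, Mx2 and Rtp4. The core of the interferon-stimulated response element was searched as GAAA, then any 2 bases, then GAAA, on both strands and with overlapping matches included. It was present in 16 of these 23 windows (69.6%), against 1312 of all 33469 windows of the same length (3.92%). The members were listed as genes that interferon induces, so the higher share follows in part from the list and tests nothing. All windows of the RefSeq table were counted, not only those of the genes tested here. The 6 windows printed are those with the element whose genes had the largest fold changes with IL-1β. Capitals mark the element, and an element on the opposite strand reads TTTC, any 2 bases, TTTC.
Ifit3 (chr1:241527076-241527375, plus strand): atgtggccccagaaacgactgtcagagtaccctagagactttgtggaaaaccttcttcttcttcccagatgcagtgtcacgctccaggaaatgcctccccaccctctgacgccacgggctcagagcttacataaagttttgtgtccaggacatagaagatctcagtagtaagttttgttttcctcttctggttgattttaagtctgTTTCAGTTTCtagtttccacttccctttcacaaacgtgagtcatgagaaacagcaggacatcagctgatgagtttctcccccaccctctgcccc
Isg20 (chr1:142239809-142240108, plus strand): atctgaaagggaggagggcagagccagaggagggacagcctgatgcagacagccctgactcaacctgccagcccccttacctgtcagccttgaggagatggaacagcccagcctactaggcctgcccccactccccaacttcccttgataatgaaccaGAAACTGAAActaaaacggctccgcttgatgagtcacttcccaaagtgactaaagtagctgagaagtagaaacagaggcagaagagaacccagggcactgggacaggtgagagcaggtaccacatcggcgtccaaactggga
Rsad2 (chr6:48788071-48788370, minus strand): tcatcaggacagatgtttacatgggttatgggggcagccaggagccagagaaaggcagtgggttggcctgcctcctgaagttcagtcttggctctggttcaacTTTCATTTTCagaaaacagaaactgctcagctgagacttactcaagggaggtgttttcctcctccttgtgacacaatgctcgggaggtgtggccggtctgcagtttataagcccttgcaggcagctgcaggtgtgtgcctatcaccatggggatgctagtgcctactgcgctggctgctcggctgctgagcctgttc
Irf7 (chr1:205799974-205800273, minus strand): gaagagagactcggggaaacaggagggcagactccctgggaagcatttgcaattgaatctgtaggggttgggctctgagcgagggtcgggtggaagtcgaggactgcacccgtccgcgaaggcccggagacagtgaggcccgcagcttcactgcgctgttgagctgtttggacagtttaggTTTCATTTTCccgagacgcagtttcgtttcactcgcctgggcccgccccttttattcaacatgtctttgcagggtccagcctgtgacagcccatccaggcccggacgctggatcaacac
Oasl2 (chr12:47383136-47383435, minus strand): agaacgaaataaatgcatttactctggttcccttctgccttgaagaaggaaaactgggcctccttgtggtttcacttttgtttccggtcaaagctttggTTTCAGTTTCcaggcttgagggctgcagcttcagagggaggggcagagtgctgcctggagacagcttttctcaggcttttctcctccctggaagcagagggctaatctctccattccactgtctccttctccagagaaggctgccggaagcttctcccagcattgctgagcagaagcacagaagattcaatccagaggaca
Ifi44 (chr2:243303791-243304090, minus strand): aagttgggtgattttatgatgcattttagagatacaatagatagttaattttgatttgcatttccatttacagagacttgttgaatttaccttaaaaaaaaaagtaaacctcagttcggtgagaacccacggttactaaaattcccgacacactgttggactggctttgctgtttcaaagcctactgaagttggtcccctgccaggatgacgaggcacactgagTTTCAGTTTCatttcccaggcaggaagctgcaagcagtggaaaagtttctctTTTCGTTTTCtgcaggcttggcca
The first base of the element as printed stood 44 bases before the start of Ifit3, 92 before Isg20, 147 before Rsad2, 69 before Irf7 and 151 before Oasl2. Ifi44 held it at 26 bases before the start and again 26 bases after it. The element was found beside genes of each direction. It was present in 9 of the 14 windows of genes that were lower with IL-1β, in 2 of the 4 windows of genes that were higher (Dtx3l and Bst2) and in all 4 windows of genes that did not pass the test (Parp14, Oas1a, Ifitm3 and Ifi27), and in the window of Xaf1. A match describes these letters in this window and says nothing of binding.

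With IL-1β, most of the interferon-stimulated genes stood lower than in control cultures. Of the 31 genes, 23 were called lower and 4 higher, where called means an adjusted p under 0.05 in edgeR's quasi-likelihood F-test across all genes, Benjamini-Hochberg adjusted. Among all 17330 genes tested, 23.0% were called lower and 24.7% higher. In either direction 87.1% of the members were called, against 47.7% of all genes. The median log2 fold change of the members was -0.51, with a range from -1.73 (Ifit3) to 0.30 (Dtx3l), against a median of 0.01 over all genes tested. In 20 members every IL-1β library stood below every control library, which held for 21.4% of all genes. In 3 members, Trim25, Parp9 and Dtx3l, every IL-1β library stood above every control library (22.8% of all genes). The 23 genes that fell were 1.12-fold (Irf9) to 3.31-fold (Ifit3) lower with IL-1β than in controls.

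With LPS, these genes lay nearer to the control level. Of the 31, 6 were called lower (Irf7, Zbp1, Isg15, Usp18, Oas2 and Isg20) and 4 higher (Parp9, Parp14, Dtx3l and Ifitm3), against 20.0% and 22.5% of all genes. The share lower, 19.4%, was near that background, and in either direction 32.3% of the members were called, against 42.5% of all genes. The median was -0.10, with a range from -0.81 (Isg20) to 0.30 (Dtx3l), against 0.01 over all genes. All LPS libraries stood below all control libraries in 3 members (Irf7, Zbp1 and Isg20; 18.2% of all genes) and above them in 4 (20.1% of all genes). The count of genes lower with LPS rested on single libraries. It was 3 without control replicate 2, without LPS replicate 1 or without LPS replicate 4, when Irf7, Isg15 and Usp18 were lost, 4 without control replicate 1 or 4 or LPS replicate 2, and 11 without LPS replicate 3. Both treated groups were tested against the same 4 control libraries.

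Set against each other, LPS cultures held more of these transcripts than IL-1β cultures. Of the 31 genes, 21 were called higher with LPS than with IL-1β and 2 lower (Trim25 and Bst2), against 11.3% and 10.6% of all genes. In either direction these were 74.2% of the members and 21.9% of all genes. The median log2 difference was 0.36, from -0.13 (Bst2) to 1.23 (Ifit3), against 0.00 over all genes. In 11 members every LPS library stood above every IL-1β library, which held for 11.1% of all genes. The 8 genes that did not pass were Zbp1, Usp18, Parp9, Dtx3l, Oas1a, Oasl, Rsad2 and Ifi27. The count of 21 was 13 without IL-1β replicate 2 or without IL-1β replicate 3, when Stat2, Ifih1, Dhx58, Herc6, Oas1b, Oasl2, Ifi44 and Rtp4 were lost, and 14 without IL-1β replicate 4. In 21 members the means ran IL-1β, LPS, control from low to high, an order that 22.2% of all genes had. In Irf7 and Isg20 it held for all 12 libraries without overlap (2.53% of all genes).

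**Figure D1:**
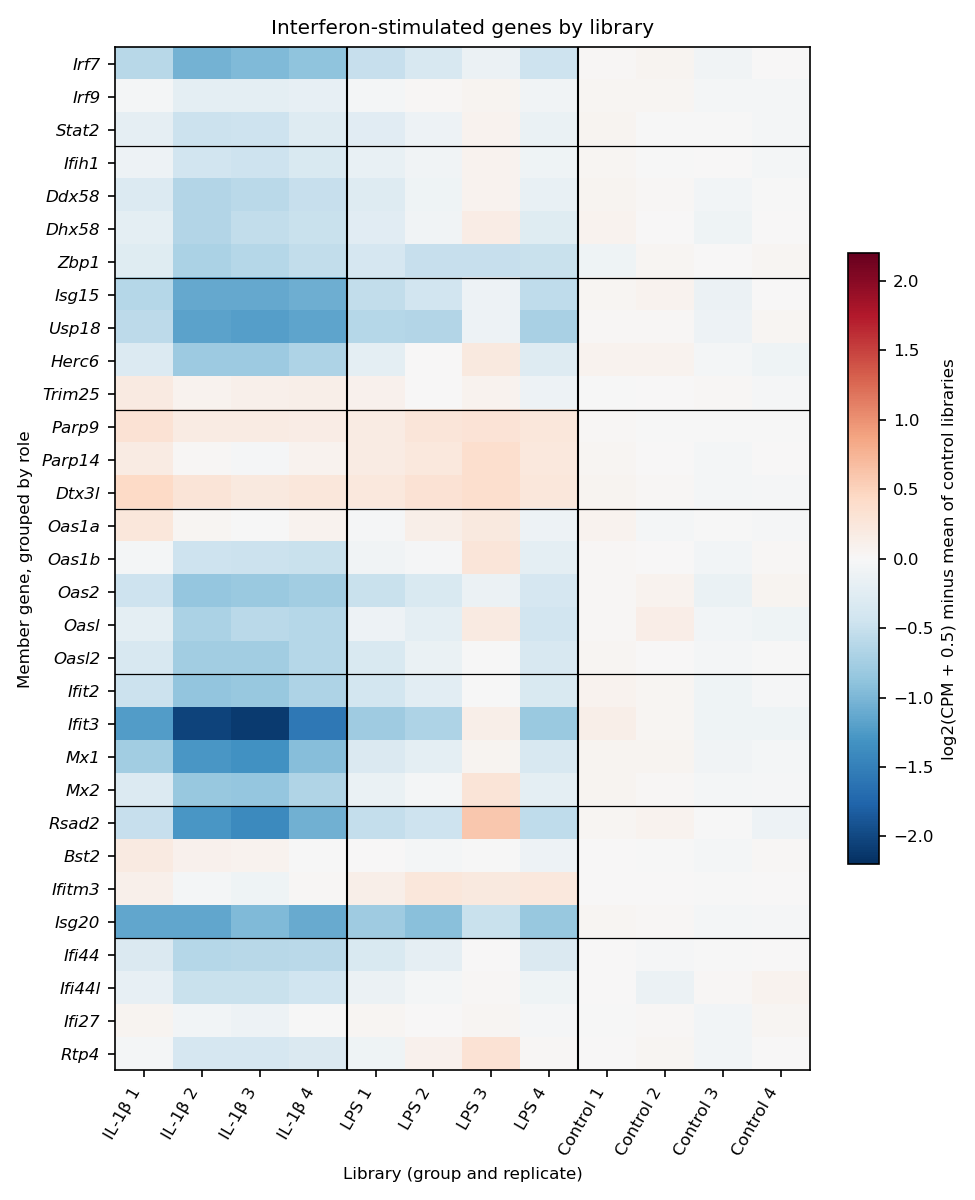
Level of each of the 31 genes (rows, grouped by role) in each of the 12 libraries (columns: IL-1β, LPS and control replicates 1 to 4), as log2(CPM + 0.5) minus the mean of the 4 control libraries; blue is below and red above that mean. The IL-1β columns are blue for most rows and the LPS columns paler, while the rows of Parp9 and Dtx3l are red in both treatments; in most rows IL-1β replicate 1 and LPS replicate 3 are less blue than the other libraries of their groups.

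**Figure D2:**
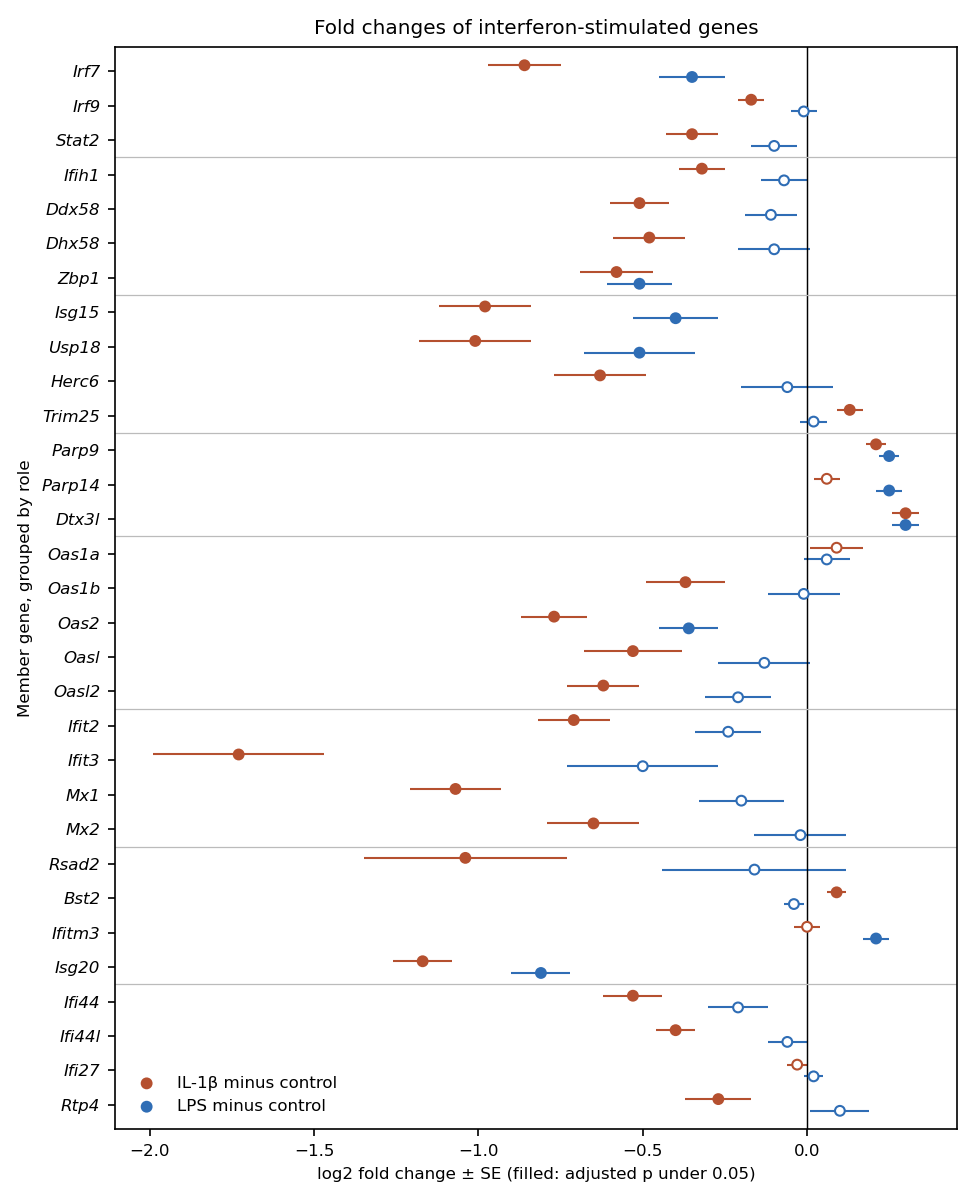
Log2 fold change ± SE of each gene (rows, grouped by role) for IL-1β minus control and LPS minus control; filled points have an adjusted p under 0.05. IL-1β points reach -1.73 at Ifit3, and the LPS points lie between -0.81 and 0.30.

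The 3 transcription factors of the list were all lower with IL-1β. Irf7, the factor that amplifies interferon production, was at 107, 79.4, 82.4 and 88.1 CPM in the IL-1β libraries, 114, 128, 149.7 and 119 CPM in the LPS libraries and 165, 169, 155 and 163 CPM in the control libraries, replicates 1 to 4 in order here and below. Its groups did not overlap, with IL-1β lowest and control highest. The log2 fold change (± SE throughout) was -0.86 ± 0.11, adjusted p = 8.5e-05, with IL-1β, and -0.35 ± 0.10, adjusted p = 0.0216, with LPS. LPS minus IL-1β was 0.51 ± 0.11, adjusted p = 0.0084. The LPS call of Irf7 was lost with the replicate block (adjusted p = 0.0582). Stat2, a subunit of ISGF3, stood at 145, 120, 122 and 137 CPM in the IL-1β libraries, 141, 155, 176 and 151 CPM in the LPS libraries and 174, 166, 166 and 163 CPM in the control libraries. All its IL-1β libraries were below the controls (-0.35 ± 0.08, adjusted p = 0.00282), and its LPS libraries overlapped both other groups (-0.10 ± 0.07, adjusted p = 0.321, against control). The DNA-binding partner Irf9 was at 74.2, 65.7, 65.9 and 67.2 CPM in the IL-1β libraries, 73.9, 78.3, 80.1 and 72.7 CPM in the LPS libraries and 79.3, 78.4, 74 and 74.5 CPM in the control libraries. Its IL-1β replicate 1 reached into the control range, and the difference was small (-0.17 ± 0.04, adjusted p = 0.00128); with LPS it was -0.01 ± 0.04, adjusted p = 0.911.

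All 4 sensors of viral nucleic acid were lower with IL-1β, with no library overlapping the controls. Zbp1, which recognises nucleic acid of the Z form, was measured at 4.65, 3.3, 3.47 and 3.72 CPM in the IL-1β libraries, 4.28, 3.85, 3.86 and 3.88 CPM in the LPS libraries and 5.3, 5.82, 5.71 and 5.86 CPM in the control libraries. Both treatments lay below the controls and overlapped each other, with -0.58 ± 0.11, adjusted p = 5.14e-05, for IL-1β, -0.51 ± 0.10, adjusted p = 0.000204, for LPS, and 0.07 ± 0.11, adjusted p = 0.744, for LPS minus IL-1β. Ddx58, the RNA sensor RIG-I, had 78.1, 61.9, 63.5 and 68.1 CPM in the IL-1β libraries, 79, 90.5, 102 and 86.6 CPM in the LPS libraries and 100.1, 97.8, 92.5 and 95.8 CPM in the control libraries. All LPS libraries of Ddx58 stood above all IL-1β libraries, and LPS replicate 3 passed every control. The log2 fold change was -0.51 ± 0.09, adjusted p = 0.000614, with IL-1β and -0.11 ± 0.08, adjusted p = 0.324, with LPS. The RIG-I relative Dhx58 (LGP2) had 28, 20.6, 22.1 and 23 CPM in the IL-1β libraries, 27.4, 30.9, 36.5 and 27 CPM in the LPS libraries and 34.3, 32.7, 30.5 and 32.8 CPM in the control libraries, a log2 fold change of -0.48 ± 0.11, adjusted p = 0.00376, with IL-1β and -0.10 ± 0.11, adjusted p = 0.474, with LPS. The remaining sensor, Ifih1 (MDA5), ranged over 63.0 to 80.4 CPM with IL-1β, 77.0 to 90.8 CPM with LPS and 84.1 to 89.2 CPM in controls, with -0.32 ± 0.07, adjusted p = 0.00301, for IL-1β.

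In the ISG15 system the modifier, its protease and a ligase fell with IL-1β while Trim25 rose. Isg15, the ubiquitin-like modifier, had 79.3, 55.8, 55.9 and 57.9 CPM in the IL-1β libraries, 84.7, 91.4, 114 and 83 CPM in the LPS libraries and 126, 130.5, 113 and 123 CPM in the control libraries. IL-1β replicate 1 was the highest of its group yet below every LPS library, and LPS replicate 3 reached the control range. With IL-1β the log2 fold change of Isg15 was -0.98 ± 0.14, adjusted p = 0.000195, a level 1.98-fold lower. It was -0.40 ± 0.13, adjusted p = 0.0331, with LPS, and 0.58 ± 0.14, adjusted p = 0.0151, for LPS minus IL-1β. Usp18 removes ISG15 and also restrains the interferon receptor. It was at 50.3, 33.2, 32.3 and 33.6 CPM in the IL-1β libraries, 48.6, 48.2, 69.9 and 45.5 CPM in the LPS libraries and 77, 77, 69.8 and 77.6 CPM in the control libraries, and LPS replicate 3 stood level with the lowest control while the other LPS libraries lay well under it. Its log2 fold change was -1.01 ± 0.17, adjusted p = 0.000792, with IL-1β, -0.51 ± 0.17, adjusted p = 0.0311, with LPS, and 0.50 ± 0.18, adjusted p = 0.0764, for LPS minus IL-1β. The calls of Isg15 and Usp18 with LPS were lost when any of control replicates 1, 2 and 4 or LPS replicates 1, 2 and 4 was left out, with adjusted p between 0.0660 and 0.0870. They were also lost with no filter on low counts (0.0566 and 0.0518) and with the replicate block (0.0693 and 0.0598). Herc6, an ISG15 ligase in the mouse, had 52.7, 37.2, 37.2 and 40.5 CPM in the IL-1β libraries, 55.8, 65.2, 75.7 and 53.3 CPM in the LPS libraries and 68.2, 68.5, 62.6 and 60.3 CPM in the control libraries. Its LPS libraries lay above all IL-1β libraries (0.57 ± 0.14, adjusted p = 0.0176) and on both sides of the controls (-0.06 ± 0.14, adjusted p = 0.775), and with IL-1β it was lower (-0.63 ± 0.14, adjusted p = 0.00446). Trim25, a ubiquitin ligase that acts on RIG-I, spanned 85.8 to 93.2 CPM with IL-1β, 74.5 to 86.5 CPM with LPS and 79.2 to 82.2 CPM in controls, so only its IL-1β libraries stood apart from the controls (0.13 ± 0.04, adjusted p = 0.00726).

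The PARP9 and DTX3L group went the other way. PARP9 and DTX3L form a complex that joins ADP-ribose and ubiquitin transfer, and PARP14 is a related ADP-ribosyltransferase. Dtx3l was at 186, 167, 159 and 163 CPM in the IL-1β libraries, 162, 172, 178 and 164 CPM in the LPS libraries and 143, 139, 133 and 134 CPM in the control libraries. Every treated library exceeded every control, and the treatments overlapped each other. The log2 fold change was 0.30 ± 0.04, adjusted p = 8.38e-06, with IL-1β, 0.30 ± 0.04, adjusted p = 9.48e-06, with LPS and 0.00 ± 0.04, adjusted p = 0.991, for LPS minus IL-1β. For Parp9, too, every treated library exceeded every control, at 329.8, 301, 300.4 and 298 CPM in the IL-1β libraries, 302, 318, 326 and 314 CPM in the LPS libraries and 269, 265, 263 and 265 CPM in the control libraries. Parp9 changed by 0.21 ± 0.03, adjusted p = 1.95e-06, with IL-1β and by 0.25 ± 0.03, adjusted p = 2.06e-07, with LPS. Parp9 and Dtx3l overlap in RefSeq GRCr8 and the strand setting of the counting is not given in the sources used here, so reads in the shared stretch may stand in either row. Parp14 had 402, 363, 348 and 376 CPM in the IL-1β libraries, 402, 418, 458 and 416 CPM in the LPS libraries and 365, 358, 345 and 357 CPM in the control libraries. Only the LPS libraries all stood above the controls, with 0.25 ± 0.04, adjusted p = 6.24e-05, against 0.06 ± 0.04, adjusted p = 0.229, for IL-1β.

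**Figure D3:**
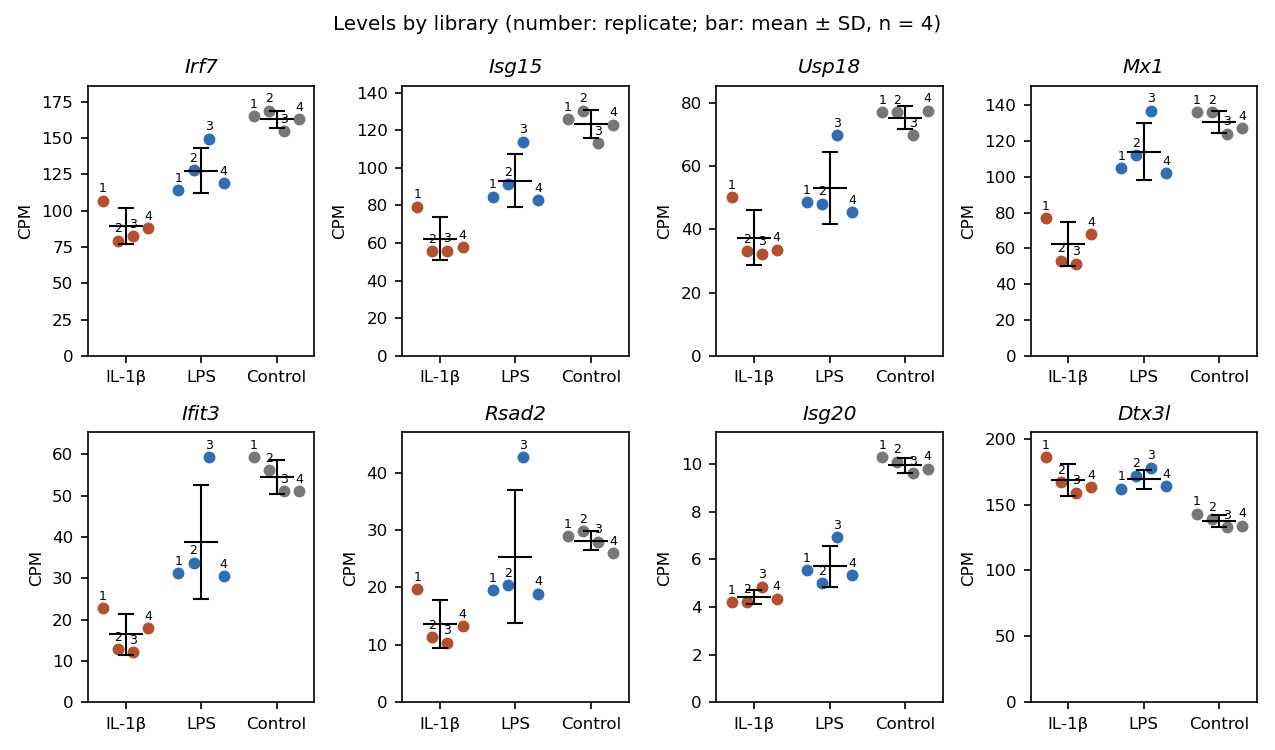
CPM of Irf7, Isg15, Usp18, Mx1, Ifit3, Rsad2, Isg20 and Dtx3l in each library (points numbered by replicate; horizontal bar and whiskers, mean ± SD, n = 4) for IL-1β, LPS and control. The IL-1β mean lies lowest in the first 7 genes, LPS replicate 3 stands above the other LPS libraries there, and both treatments lie above control in Dtx3l.

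The OAS family includes the enzymes that make the short oligoadenylates that activate RNase L, though not every member makes them. Oas1a and Oas1b, close copies of each other, differed in call with IL-1β, and since reads of such copies can be shared their counts are uncertain. Oas2 was at 6.57, 4.9, 5.01 and 5.22 CPM in the IL-1β libraries, 6.44, 7.21, 8.38 and 7 CPM in the LPS libraries and 9.33, 9.76, 8.25 and 9.58 CPM in the control libraries. IL-1β lay lowest without touching the controls (-0.77 ± 0.10, adjusted p = 2.02e-07), while LPS replicate 3 reached the lowest control (-0.36 ± 0.09, adjusted p = 0.00272). Oasl2, a family member with a ubiquitin-like tail, had 107, 79.9, 79.6 and 88 CPM in the IL-1β libraries, 108, 123, 136 and 106 CPM in the LPS libraries and 139.9, 137, 132 and 136 CPM in the control libraries. Its IL-1β libraries lay below all controls (-0.62 ± 0.11, adjusted p = 0.000778) and its LPS libraries reached into them (-0.21 ± 0.10, adjusted p = 0.138). Oasl was measured at 21.7, 15.5, 16.5 and 16.2 CPM in the IL-1β libraries, 23.3, 21.7, 29.1 and 18.7 CPM in the LPS libraries and 25.7, 27.9, 24.1 and 23.6 CPM in the control libraries. It too was lower with IL-1β (-0.53 ± 0.15, adjusted p = 0.0121) and not called with LPS (-0.13 ± 0.14, adjusted p = 0.492). Oas1b ranged over 15.3 to 20.9 CPM with IL-1β, 18.6 to 26.3 CPM with LPS and 20.7 to 22.2 CPM in controls (-0.37 ± 0.12, adjusted p = 0.0207, for IL-1β). That call of Oas1b was lost without control replicate 1 or 4 or without IL-1β replicate 2, 3 or 4, with adjusted p from 0.0503 to 0.0607. Oas1a ranged over 74.5 to 89.1 CPM with IL-1β, 69.0 to 87.4 CPM with LPS and 72.9 to 79.0 CPM in controls and passed no test (0.09 ± 0.08, adjusted p = 0.342, for IL-1β).

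The IFIT proteins, which bind viral RNA or hinder its translation, and the Mx proteins, dynamin-like GTPases that act on incoming virus, gave the largest median difference between the treatments of any role group, 0.75 for LPS minus IL-1β. All 4 fell with IL-1β, and none was called with LPS by the edgeR test on all 12 libraries. With limma-voom in its place, Ifit3 (-0.56, adjusted p = 0.0034) and Ifit2 (-0.25, adjusted p = 0.00799) were called lower with LPS, Mx1 and Mx2 not. All 4 were higher in every LPS library than in any IL-1β library. Ifit3 was at 22.8, 12.9, 12.2 and 18 CPM in the IL-1β libraries, 31.3, 33.8, 59.3 and 30.5 CPM in the LPS libraries and 59.3, 56.2, 51.1 and 51 CPM in the control libraries. The IL-1β libraries were lowest, 3 LPS libraries were close together, and LPS replicate 3 matched the highest control. The log2 fold change was -1.73 ± 0.26, adjusted p = 0.000373, with IL-1β, a level 3.31-fold lower and the largest change in the list. It was -0.50 ± 0.23, adjusted p = 0.119, with LPS, and 1.23 ± 0.27, adjusted p = 0.0103, for LPS minus IL-1β. Without LPS replicate 3 the LPS value of Ifit3 was -0.77 with an adjusted p of 0.00538, and that of Ifit2 was -0.33 (0.0196). Mx1 had 76.9, 53.2, 51.5 and 68.1 CPM in the IL-1β libraries, 105, 112, 137 and 102 CPM in the LPS libraries and 136, 136, 124 and 127 CPM in the control libraries. Its IL-1β libraries lay apart from all others, and LPS replicate 3 passed the highest control. The log2 fold change was -1.07 ± 0.14, adjusted p = 0.00012, with IL-1β, -0.20 ± 0.13, adjusted p = 0.268, with LPS and 0.87 ± 0.14, adjusted p = 0.00179, for LPS minus IL-1β. Ifit2 was at 77.4, 58.3, 59.8 and 67.3 CPM in the IL-1β libraries, 80.9, 91, 107 and 85 CPM in the LPS libraries and 113, 110.2, 101 and 106 CPM in the control libraries. Its log2 fold change was -0.71 ± 0.11, adjusted p = 0.000356, with IL-1β and -0.24 ± 0.10, adjusted p = 0.0935, with LPS, where LPS replicate 3 again reached into the controls. Mx2 spanned 229.6 to 335 CPM with IL-1β, 355 to 505 CPM with LPS and 400.4 to 431 CPM in controls (-0.65 ± 0.14, adjusted p = 0.00363, for IL-1β, and -0.02 ± 0.14, adjusted p = 0.931, for LPS).

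Among the other effectors, Isg20, an RNA exonuclease, fell with both treatments. It was at 4.22, 4.23, 4.86 and 4.36 CPM in the IL-1β libraries, 5.56, 5, 6.94 and 5.35 CPM in the LPS libraries and 10.3, 10.1, 9.61 and 9.81 CPM in the control libraries. The 3 groups did not overlap, and the control libraries were about level with each other. The log2 fold change was -1.17 ± 0.09, adjusted p = 2.93e-11, with IL-1β, -0.81 ± 0.09, adjusted p = 1.84e-08, with LPS and 0.36 ± 0.10, adjusted p = 0.011, for LPS minus IL-1β. The call of LPS minus IL-1β was lost without LPS replicate 3 (0.26, adjusted p = 0.0731) and without both LPS replicate 3 and IL-1β replicate 1 (0.24, adjusted p = 0.153). Rsad2 (viperin), which makes a nucleotide that ends viral RNA chains, had 19.7, 11.3, 10.4 and 13.3 CPM in the IL-1β libraries, 19.5, 20.4, 42.7 and 18.9 CPM in the LPS libraries and 28.9, 29.8, 28 and 26 CPM in the control libraries. All IL-1β libraries were below the controls, while the LPS libraries split into 3 of 18.9 to 20.4 CPM and replicate 3 above every control. Its log2 fold change was -1.04 ± 0.31, adjusted p = 0.0196, with IL-1β, a call lost without IL-1β replicate 2 or 3 (adjusted p 0.0527 and 0.0568). With LPS it was -0.16 ± 0.28, adjusted p = 0.693, and -0.53 without LPS replicate 3, where the adjusted p was 0.0408. Ifitm3, which blocks fusion of virus with the cell membrane, was at 469, 418, 406 and 442 CPM in the IL-1β libraries, 473, 514, 503 and 510.2 CPM in the LPS libraries and 434, 437, 428 and 433 CPM in the control libraries. It has close relatives in the genome, and reads may be shared with them. Only its LPS libraries stood apart, above every other library, with 0.21 ± 0.04, adjusted p = 4.54e-05, against control and 0.21 ± 0.04, adjusted p = 0.000182, against IL-1β, while IL-1β minus control was 0.00 ± 0.04, adjusted p = 0.986. Bst2 (tetherin), which holds budding virus at the cell surface, spanned 499 to 574 CPM with IL-1β, 460.4 to 502 CPM with LPS and 488 to 508 CPM in controls. Its rise with IL-1β (0.09 ± 0.03, adjusted p = 0.0339) was lost without IL-1β replicate 1 or 2, without control replicate 2 or 3 and with DESeq2.

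The last group holds interferon-induced proteins with less settled roles. Ifi44 was at 108, 87.3, 88.2 and 88.9 CPM in the IL-1β libraries, 106, 117, 135 and 108 CPM in the LPS libraries and 136, 132, 134 and 136 CPM in the control libraries. All its IL-1β libraries lay below all controls (-0.53 ± 0.09, adjusted p = 0.000628), and LPS replicate 3 alone among the LPS libraries reached the controls (-0.21 ± 0.09, adjusted p = 0.0794). Ifi44l, which like Ifi44 starts on chromosome 2 in GRCr8, had 26.8, 21.6, 21.5 and 22.3 CPM in the IL-1β libraries, 27.7, 29.6, 30.9 and 28.6 CPM in the LPS libraries and 30.7, 28, 31.1 and 32.3 CPM in the control libraries. It was lower with IL-1β (-0.40 ± 0.06, adjusted p = 7.47e-06) and LPS exceeded IL-1β in every library (0.34 ± 0.06, adjusted p = 0.000314). Rtp4, a chaperone of G protein-coupled receptors, was at 89.9, 71.9, 71.4 and 74.3 CPM in the IL-1β libraries, 87.3, 99.2, 116 and 94.9 CPM in the LPS libraries and 93.6, 95.3, 88.9 and 93.3 CPM in the control libraries. It was lower with IL-1β (-0.27 ± 0.10, adjusted p = 0.0412) with IL-1β replicate 1 inside the control range, and not called with LPS (0.10 ± 0.09, adjusted p = 0.461). The call of Rtp4 with IL-1β was lost in 9 of the 12 fits that left out 1 library, with adjusted p up to 0.103. It was also lost with library size alone, with no filter on low counts and with the replicate block (0.0978). Rtp4 overlaps Masp1 in RefSeq GRCr8, so its counts share the limit named for Parp9. Ifi27 lay between 559.9 and 626 CPM in all 12 libraries and passed no test.

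Within each treated group the same library was the highest for most members. IL-1β replicate 1 was the highest of its group in 30 of 31 members, Isg20 being the exception, against 23.9% of all genes tested. The median deviation of members from the median of the other 3 IL-1β libraries was 0.32 on the log2 scale, against 0.00 over all genes. LPS replicate 3 was the highest of its group in 27 of 31 members (28.1% of all genes), with a median deviation of 0.29, against 0.00 over all genes, and deviations of 1.11 for Rsad2 and 0.91 for Ifit3. Of the 9 receptor and kinase genes, 3 were highest in IL-1β replicate 1 and 1 in LPS replicate 3. Summed macrophage and myeloid markers were 128 CPM in IL-1β replicate 1, the lowest of that group, and 124 CPM in LPS replicate 3, at the upper end of the LPS range of 116 to 124 CPM. Of 19 such markers, LPS replicate 3 was the highest of its group in 6 and the lowest in 1 (median deviation 0.06). IL-1β replicate 1 was the highest of its group in 7 and the lowest in 6 (-0.03). Other markers stood apart in LPS replicate 3, which was the lowest of its group in 27.2% of all genes tested. It was the lowest in 10 of 10 endothelial markers (median deviation -0.34) and in 7 of 11 theca and steroidogenic markers (-0.12). IL-1β replicate 1 was the lowest of its group in 24.2% of all genes tested. It was the lowest in 2 of 10 endothelial markers (median deviation 0.05) and in 3 of 11 theca and steroidogenic markers (0.06). Their part in the levels of the interferon-stimulated genes in these libraries was not tested. The within-group SD of log2 levels had a median over members of 0.159 with IL-1β, 0.157 with LPS and 0.0489 in controls. Over the 12450 genes at least as abundant as the lowest member the median was 0.0590 with IL-1β, 0.0659 with LPS and 0.0563 in controls. Without both IL-1β replicate 1 and LPS replicate 3, a choice made after seeing the data, 23 members were lower with IL-1β, 18 lower with LPS and 23 higher with LPS than with IL-1β. Of those 23, 20 were also called with all libraries, Usp18, Oasl and Rsad2 were gained, and Isg20 was lost. The 12 genes gained as lower with LPS were Stat2, Ifih1, Ddx58, Dhx58, Oasl, Oasl2, Ifit2, Ifit3, Mx1, Mx2, Rsad2 and Ifi44. The libraries left out were those in which most of these same members were highest. Lower levels and a smaller spread without them therefore follow in part from the choice, and the counts of this fit are no test of either treatment. The share of all genes called in this fit was not computed.

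**Figure D4:**
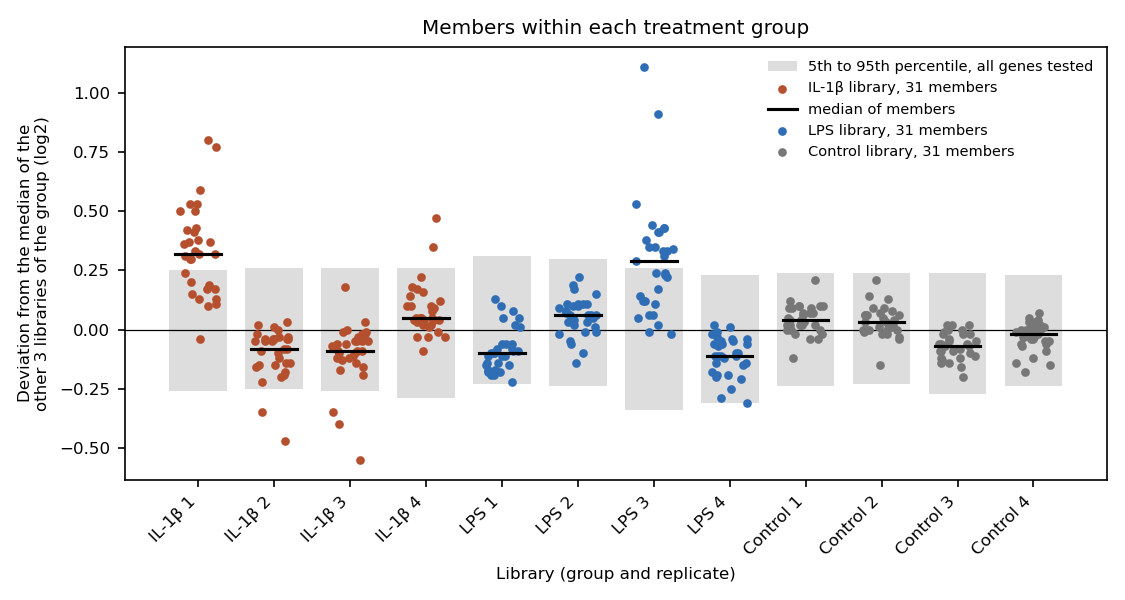
Deviation of each of the 31 genes (points) from the median of the other 3 libraries of the same group, on the log2 scale, by library; black bars are medians over the genes and grey bands run from the 5th to the 95th percentile of all genes tested. IL-1β replicate 1 and LPS replicate 3 have medians of 0.32 and 0.29, and the control libraries lie near 0.

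Transcripts of the interferons themselves were at or near the limit of detection. Of 14 ligand genes listed, 11 had a row and none passed the filter on low counts. Their counts summed over 4 libraries to 18 with IL-1β, 18 with LPS and 11 in controls, with at most 3 in any 1 library, and interferon-β (Ifnb1) had 1 count in each group. A difference between groups was not detectable at this depth, and the sole time sampled was 48 h.

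Most of the listed receptor and kinase genes, which cover more than the type I interferon receptor, were higher with both treatments. Of 9 receptor and kinase genes, 7 (77.8%) were called higher and 0 lower in each treatment, against 24.7% of all genes called higher with IL-1β and 22.5% with LPS. Jak2, a kinase of several cytokine receptors, had 169.8, 156, 168 and 159 CPM in the IL-1β libraries, 190.2, 187, 195 and 193 CPM in the LPS libraries and 54.2, 54.4, 51.6 and 50.2 CPM in the control libraries, with no overlap between the groups. Its log2 fold change was 1.63 ± 0.03, adjusted p = 5.36e-24, with IL-1β, 1.86 ± 0.03, adjusted p = 3.11e-25, with LPS and 0.23 ± 0.03, adjusted p = 4.12e-06, for LPS minus IL-1β. The interferon receptor subunit Ifnar2 rose by 0.63 ± 0.04 with IL-1β and 0.75 ± 0.04 with LPS, both on the log2 scale. Ifnar1 rose by 0.23 ± 0.03 with IL-1β and 0.35 ± 0.03 with LPS. Ifngr1 and Ifngr2, subunits of the interferon-γ receptor, rose by 0.24 ± 0.03 and 0.36 ± 0.04 with IL-1β and by 0.49 ± 0.03 and 0.59 ± 0.04 with LPS, and LPS exceeded IL-1β in both (0.25 ± 0.03 and 0.23 ± 0.04). Ifnlr1, of the interferon-λ receptor, was at 0.61 ± 0.06, adjusted p = 1.82e-09, with IL-1β and 0.49 ± 0.06, adjusted p = 1.28e-07, with LPS, and LPS minus IL-1β was not called (-0.12 ± 0.06, adjusted p = 0.149). Il10rb, also on this list, rose by 0.33 ± 0.04 with IL-1β and 0.35 ± 0.04 with LPS. Jak1 and Tyk2, the kinases of the type I interferon receptor, were not called against control in either treatment.

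Of 15 tested genes that lead to interferon production, 1 was higher and 7 lower with IL-1β, 3 higher and 5 lower with LPS, and 8 higher and 0 lower for LPS against IL-1β. The shares lower were 46.7% with IL-1β, against 23.0% of all genes, and 33.3% with LPS, against 20.0%. The shares higher were 6.67% with IL-1β, against 24.7%, and 20.0% with LPS, near the 22.5% of all genes. For LPS against IL-1β 53.3% were higher, against 11.3% of all genes. Mb21d1, the DNA sensor cGAS, had 2.04, 1.61, 1.65 and 2.39 CPM in the IL-1β libraries, 2.82, 3.08, 3.08 and 2.69 CPM in the LPS libraries and 3.59, 4.61, 4.34 and 4.45 CPM in the control libraries, with -1.14 ± 0.14, adjusted p = 5.47e-08, for IL-1β and -0.54 ± 0.12, adjusted p = 0.000831, for LPS, and the groups did not overlap. Tlr4, the LPS receptor, was at -0.78 ± 0.07 with IL-1β and -0.45 ± 0.07 with LPS, both called lower. Tlr3, a sensor of double-stranded RNA, was called lower at -0.37 ± 0.04 with IL-1β and -0.22 ± 0.04 with LPS. Ikbke, a kinase that activates IRF3 and IRF7, rose by 0.60 ± 0.06 with IL-1β and 0.66 ± 0.06 with LPS. Irf5 rose with LPS (0.42 ± 0.06, adjusted p = 3.46e-06) and was not called with IL-1β (0.07 ± 0.07, adjusted p = 0.393). Tank and Traf3, adaptors of this route, were higher with LPS than with IL-1β by 0.33 ± 0.05 and 0.19 ± 0.04.

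Of 7 brakes on interferon signalling, 4 were higher and 2 lower with IL-1β, and 3 higher and 2 lower with LPS. The shares higher were 57.1% with IL-1β, against 24.7% of all genes, and 42.9% with LPS, against 22.5%. The share lower, 28.6% in each treatment, was near the 23.0% of all genes with IL-1β and 20.0% with LPS. Socs3, an inhibitor of JAK kinases, had 122, 121, 119 and 116 CPM in the IL-1β libraries, 77.3, 68.2, 56.1 and 61.8 CPM in the LPS libraries and 19.1, 18.1, 19.8 and 18 CPM in the control libraries. Its groups did not overlap, and IL-1β was highest and control lowest (2.68 ± 0.09, adjusted p = 1.19e-10, for IL-1β, 1.82 ± 0.09, adjusted p = 9.08e-09, for LPS, and -0.86 ± 0.08, adjusted p = 1.02e-05, for LPS minus IL-1β). The phosphatase Ptpn2 rose by 0.59 ± 0.04 with IL-1β and 0.65 ± 0.04 with LPS. Ptpn6, a phosphatase best known in blood cells, was at -0.85 ± 0.12 with IL-1β and -0.71 ± 0.11 with LPS, both called lower. Ptpn11 was called lower at -0.23 ± 0.03 with IL-1β and -0.18 ± 0.03 with LPS. Socs1 was higher with IL-1β (0.55 ± 0.20, adjusted p = 0.0237) with overlapping libraries, and not called with LPS (0.31 ± 0.20, adjusted p = 0.222).

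**Figure D5:**
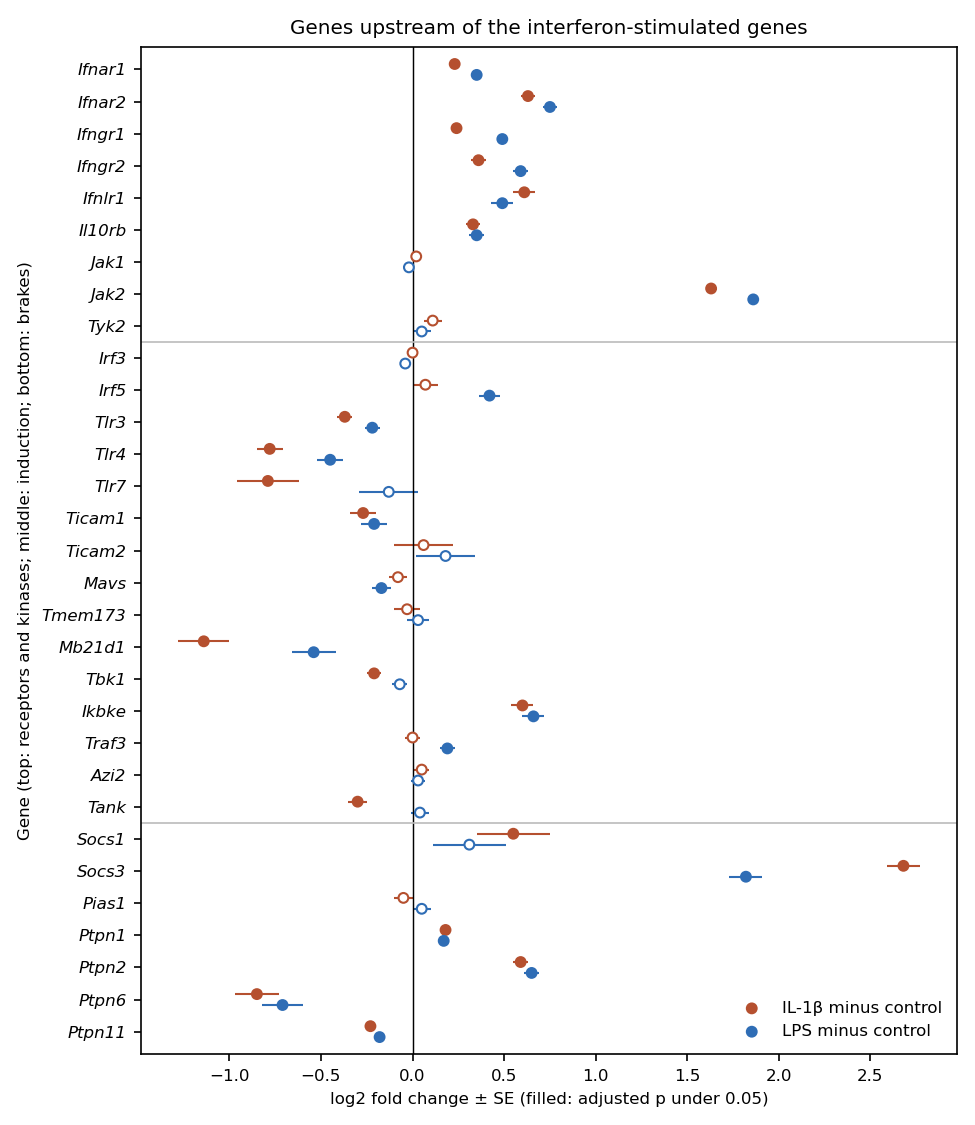
Log2 fold change ± SE of the genes upstream of the interferon-stimulated genes (rows: receptors and kinases at the top, genes of interferon induction in the middle, brakes at the bottom) for IL-1β minus control and LPS minus control; filled points have an adjusted p under 0.05. Jak2 and Socs3 lie farthest to the right, at 1.63 and 2.68 with IL-1β and 1.86 and 1.82 with LPS, and Mb21d1 farthest to the left with IL-1β, at -1.14.

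A second list of 53 interferon-induced genes outside the 32 was read beside them. Of its 48 genes tested, 23 were lower and 8 higher with IL-1β (median -0.22), 11 lower and 11 higher with LPS (median -0.02), and 18 higher and 0 lower for LPS minus IL-1β (median 0.15). With IL-1β 47.9% were lower and 16.7% higher, against 23.0% and 24.7% of all genes tested. With LPS the share was 22.9% in each direction, near the 20.0% lower and 22.5% higher of all genes. For LPS minus IL-1β 37.5% were higher, against 11.3% of all genes. Lgals3bp, a secreted galectin-binding protein, was at -0.45 ± 0.04 with IL-1β and -0.23 ± 0.04 with LPS. Tdrd7, which restrains viral replication, was at -0.40 ± 0.04 with IL-1β and -0.30 ± 0.04 with LPS. The nuclear body protein Sp100 was at -0.52 ± 0.05 with IL-1β and -0.15 ± 0.05 with LPS. Plscr1, a phospholipid scramblase, moved the other way, with 16.1, 15.6, 16.2 and 15.2 CPM in the IL-1β libraries, 17.1, 19, 22.7 and 18.6 CPM in the LPS libraries and 4.51, 3.63, 3.9 and 3.19 CPM in the control libraries. Every treated library of Plscr1 exceeded every control, with a log2 fold change of 2.05 ± 0.10, adjusted p = 1.34e-15, with IL-1β and 2.34 ± 0.09, adjusted p = 4.82e-17, with LPS. Ifitm1 rose by 0.35 ± 0.04 with IL-1β and 0.34 ± 0.04 with LPS. Epsti1, with means of 0.525 CPM with IL-1β, 0.291 CPM with LPS and 1.09 CPM in controls, was at -1.03 ± 0.24, adjusted p = 0.000898, with IL-1β and -1.88 ± 0.27, adjusted p = 1.74e-06, with LPS. Higher with LPS than with IL-1β by the smallest p were Sp100 (0.37 ± 0.05), Slfn5 (0.25 ± 0.03), Lgals3bp (0.22 ± 0.04) and Trim21 (0.28 ± 0.05). IL-1β replicate 1 was the highest of its group in 37 of these 48 genes and LPS replicate 3 in 32.

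Markers of other cell types also differed between the groups. Summed over the 20 macrophage and myeloid markers with a row, levels were 128 to 137 CPM with IL-1β, 116 to 124 CPM with LPS and 182 to 196 CPM in controls. Of 19 such markers tested, 12 were lower and 3 higher with IL-1β, 14 lower and 2 higher with LPS, and 11 lower and 1 higher for LPS minus IL-1β. The shares lower were 63.2% with IL-1β, 73.7% with LPS and 57.9% for LPS minus IL-1β, against 23.0%, 20.0% and 10.6% of all genes. The shares higher were 15.8%, 10.5% and 5.26% in the same order, against 24.7%, 22.5% and 11.3% of all genes. None of these markers was at 0 in all libraries, and Marco had fewer than 10 counts in each. Among the 19 tested, the lowest and highest log2 fold changes were -2.40 and 3.68 for IL-1β. For LPS they were -4.02 and 0.31, and for LPS minus IL-1β -4.23 and 1.88. Ptprc (CD45), the pan-leukocyte marker, averaged 3.41 ± 0.661 CPM with IL-1β, 4.05 ± 0.456 CPM with LPS and 8.81 ± 0.912 CPM in controls (SD, n = 4 each). Unlike 11 of the 19, Ptprc was not called lower for LPS minus IL-1β (0.23 ± 0.13, adjusted p = 0.215). Markers of plasmacytoid dendritic, T, B and NK cells summed to 55.0 to 59.2 CPM with IL-1β, 52.3 to 59.0 CPM with LPS and 67.6 to 70.6 CPM in controls, with Siglech, Cd3e, Ms4a1, Gzmb, Klrb1 and Ncr1 under 10 counts in every library. Most of that sum was Tcf4, which other cell types also express, with means of 43.8 CPM with IL-1β, 41.2 CPM with LPS and 47.1 CPM in controls. Of the 7 such markers tested, 2 were higher and 2 lower with IL-1β and 1 higher and 3 lower with LPS. The IL-1β share was 28.6% in each direction, near the 24.7% higher and 23.0% lower of all genes. The LPS shares were 14.3% higher, against 22.5%, and 42.9% lower, against 20.0%. Irf8 was higher with both (0.54 ± 0.15, adjusted p = 0.00415, with IL-1β and 0.93 ± 0.14, adjusted p = 5.39e-06, with LPS). Cd4 was lower with both (-1.47 ± 0.08 for IL-1β, -1.27 ± 0.08 for LPS), as was Cd79a (-0.68 ± 0.13 and -0.80 ± 0.12). Cd8a was called higher with IL-1β only (0.56 ± 0.22) and Tcf4 lower with LPS only (-0.19 ± 0.05). Endothelial markers summed to 372 to 423 CPM with IL-1β, 257 to 347 CPM with LPS and 172 to 203 CPM in controls. Theca and steroidogenic markers summed to 748 to 804 CPM with IL-1β, 586 to 633 CPM with LPS and 354 to 385 CPM in controls. Star, whose levels are given above, made up a large part of that sum. Granulosa markers summed to 581 to 753 CPM with IL-1β, 389 to 532 CPM with LPS and 338 to 404 CPM in controls. Of the 6 granulosa markers, 4 (66.7%) were higher and 1 (16.7%) lower with IL-1β, from -1.23 to 1.46 on the log2 scale. With LPS 2 (33.3%) were higher and 1 (16.7%) lower, from -1.32 to 1.43. Among all genes 24.7% were higher and 23.0% lower with IL-1β, and 22.5% and 20.0% with LPS. The part of these cells in the levels of the interferon-stimulated genes was not tested.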

How the data were processed

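The authors deposited 1 table of raw read counts, with a row per gene symbol, a column per library and no normalization. Libraries were made with a stranded mRNA kit and sequenced on an Illumina HiSeq, per the labels' protocols. TopHat2 2.1.1, SAMtools, DESeq2 and the build Rnor_6.0 are named in the submitters' processing notes; the counting program, annotation and strand setting are not given in the sources used here, nor is the treatment of reads shared by similar genes.

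Tests were run with edgeR 4.0.16 in R 4.3.3: genes kept by filterByExpr (17330), TMM scaling, the 3 groups as the sole term over 12 libraries, glmQLFit (robust), two-sided quasi-likelihood F-tests and Benjamini-Hochberg adjustment over all genes, called at 0.05. SE is the absolute log2 fold change divided by the square root of F. Deviations and SDs used log2(CPM + 0.5). The procedure was tested on simulated data. No member row was near-identical to another row (r of at least 0.995 with levels within 0.15 on the log2 scale). Members, roles and lists were chosen with earlier results of these data known. A gene of the pathway lists is not reported here. Per-library values are given for members called in any comparison and among the 3 largest changes of their role group, and the 4 genes with the smallest p per comparison are named from each other list. Promoter windows are from RefSeq GRCr8. Alternatives were DESeq2 size factors, library size alone, no or a stricter filter, DESeq2 1.42.0, limma-voom (limma 3.58.1), 8-library fits, a replicate block and each library left out. The series design names no pairing, so replicate numbers were not treated as pairs. Deviations of same-numbered libraries of different groups were at most weakly correlated (r from -0.033 to 0.117 over 12 pairs, 1 of them above 0.1). For differently numbered libraries r ran from -0.0749 to 0.0557. The highest values were thus of same-numbered pairs, IL-1β and LPS replicate 4 (0.117) and replicate 2 (0.0945). A weak shared deviation is not excluded.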

Additional observations from a re-analysis of the deposited data

Results flagged for a closer look

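Each of the 31 members was examined in each group of 4 libraries for a library far from the rest, meaning a gap to its nearest neighbour, as a share of the group's range, above Dixon's critical value for 4 samples. Of 93 such groups 13 met this, where chance gives about 1 in 20. IL-1β replicate 1 stood high in 8 of them: Isg15 at 79.3 CPM, Usp18 at 50.3 CPM, Parp9 at 329.8 CPM, Oas1b at 20.9 CPM, Oasl at 21.7 CPM, Ifi44 at 108 CPM, Ifi44l at 26.8 CPM and Rtp4 at 89.9 CPM. LPS replicate 3 stood high in 3: Usp18 at 69.9 CPM, Ifit3 at 59.3 CPM and Rsad2 at 42.7 CPM. The other 2 were Zbp1, high at 4.28 CPM in LPS replicate 1, and Usp18, low at 69.8 CPM in control replicate 3. The genes share libraries, so these are not separate observations.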

How the results depend on the processing

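The count of members lower with IL-1β, 23, lay between 20 and 23 when 1 library was left out and at 22 or 23 under every other alternative, and the count higher, 4, lay between 3 and 5. The count higher with LPS was 4 under all alternatives run. The count lower with LPS, 6, was 10 with limma-voom, 3 with the replicate block and from 3 to 11 with single libraries left out. It was 18 without IL-1β replicate 1 and LPS replicate 3 together. Limma-voom added Oasl2, Ifit2, Ifit3 and Ifi44, and the replicate block lost Irf7, Isg15 and Usp18. For LPS minus IL-1β, the 21 higher became 12 when only the 8 libraries compared were fitted, 14 with the replicate block, and from 13 to 24 with single libraries left out. The 2 lower became 1 with DESeq2, limma-voom, the 8 libraries compared or both libraries left out, and were 1 or 2 with single libraries left out. The cause was not tested. The replicate block left 22 members lower and 4 higher with IL-1β.

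Directions changed only where the fold change was near 0 and not called. IL-1β minus control for Ifitm3 was -0.01 with DESeq2 size factors or DESeq2, 0.00 with no filter or limma-voom, -0.04 without both libraries, and -0.04 to 0.03 with single libraries left out; Ifi27 was 0.02 with library size alone. LPS minus control with library size alone was 0.03 for Irf9, 0.03 for Oas1b and 0.02 for Mx2. With single libraries left out it ran from -0.03 to 0.02 for Irf9, -0.16 to 0.01 for Herc6, -0.01 to 0.06 for Trim25, -0.11 to 0.06 for Oas1b, -0.14 to 0.04 for Mx2 and 0.00 to 0.03 for Ifi27. LPS minus IL-1β for Dtx3l was -0.01 with library size alone and with the stricter filter, and -0.03 to 0.05 with single libraries left out, and for Oas1a -0.09 to 0.02. Every member had at least 78 counts in each library, while depth limited what can be said of the interferon genes.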
